A study of Mus musculus with 8 samples.

Results

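The measurement described here is the share of each cell's UMIs (unique molecular identifiers, each standing for 1 captured RNA molecule) that came from mitochondrially encoded genes, in whole mouse kidney. The deposited cell table gives this share as a percent for every cell, so all 77393 of 77393 cells entered, in all 28 cell classes named by the authors. The kidneys came from C57BL/6 mice aged 7 weeks, with no transgene or deletion named in the labels, and were profiled cell by cell on the 10x Genomics Chromium platform with 3′ chemistry. 6 samples are labelled Control (46070 cells) and 2 are labelled UUO, for unilateral ureteral obstruction (31323 cells). UUO is a model of kidney injury in which the left ureter is tied, and these kidneys were taken on day 7. The same treatment text, with ligation, stands on all 8 samples, so the Control group rests on the titles and the disease label, and which kidney or operation the Controls had is not stated. The labels do not say that each library is a separate animal, so p-values cover only how far these samples differ, and that spread may be technical.

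Mitochondria keep a small genome of their own. In the GENCODE annotation of the mouse build GRCm38 it holds 37 genes, of which 13 code for proteins, 2 for ribosomal RNAs and 22 for transfer RNAs. The proteins are core subunits of the respiratory chain and ATP synthase: mt-Nd1, a subunit of complex I, lies at positions 2751 to 3707 of chromosome M on the plus strand, mt-Co1, a subunit of complex IV, at 5328 to 6872 on the plus strand, and mt-Cytb, a subunit of complex III, at 14145 to 15288 on the plus strand. Tubular epithelium reabsorbs salt and solutes against steep gradients and is rich in mitochondria, the proximal and distal segments above all, while resting lymphocytes hold little cytoplasm and few mitochondria. A high mitochondrial share is also a widely used sign of a damaged cell, because mitochondria can hold their RNA after cytoplasmic RNA has leaked out. The sources used here do not give which of the mitochondrial genes were summed, and the files give the sum alone, so no single gene, sequence or class marker was examined. Whether mitochondrial genes took part in defining the classes is likewise not given.

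The libraries did not stand on one level. They held 2263 to 18393 cells and 4375942 to 56755823 UMIs, with sample medians of 1292 to 2944 UMIs a cell. Controls 1 to 4 had a median mitochondrial percent over all their cells of 8.74, 9.34, 10.5 and 10.0, Controls 5 and 6 of 13.8 and 17.4, and UUO samples 1 and 2 of 13.4 and 11.8. Controls 5 and 6 were also the largest Control libraries, at 16168 and 13657 cells, near the 18393 and 12930 cells of the UUO samples and above the 2263 to 6433 cells of the other Controls. In 20 of 22 classes that could be compared, both Controls 5 and 6 had a higher median than every other Control. The exceptions were PT (proximal tubule) and Neutro (neutrophils). The main comparisons of the groups below are therefore also given without these 2 libraries. The class proportions of Controls 3 and 4 did not differ at the 0.05 threshold (chi-square p = 0.0509, against at most 4.09e-41 for every other pair of Controls), and they were pooled and counted as 1 sample, which leaves 5 Control and 2 UUO samples. The p lies just over the threshold, and whether they are 1 sample or 2 is not known: their medians differed in CD PC (23.6% and 10.6%), Trans IC (4.41% and 9.76%) and Neutro (2.28% over 13 cells and 27.4%). Between 10 and 398 cell barcodes were shared by any pair of libraries, and of these 3399 barcode pairs 0 had the same UMIs, genes and mitochondrial percent. The highest percent in the table is 49.98, and the distributions below end at that limit. Genes detected per cell ran from 298 to 2998, and how far this range bears on the UMIs per cell was not tested. A share of 0 mitochondrial UMIs was listed in 3 cells, 2 of Control 3 and 1 of Control 4. How much of any class's share came from RNA free in the droplets was not tested.

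Over all cells together, class accounted for more of the variance in mitochondrial share than library did. Class alone accounted for 21.8% of the variance of log2(percent + 0.5) over cells, sample alone for 4.74%, and the combination of class and sample for 29.5%. The rest was spread between cells of 1 class in 1 library. Most cells were PT and class proportions differed between libraries, so these shares give no general ranking of class over library. The order of the class medians correlated between libraries with a Spearman rho of 0.20 to 0.97 and a median of 0.73 over 28 pairs of libraries, each over 10 to 24 classes with at least 20 cells. That correlation is a description, since the classes of a library share its depth and preparation.

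The connecting tubule had the highest mean level in Control. Its class CNT, the segment between the distal convoluted tubule and the collecting duct, had a Control mean of sample medians of 20.4% ± 4.68 (SD, n = 5). The CNT medians of Controls 1 to 6 were 15.1%, 17.6%, 17.8%, 19.8%, 26.7% and 23.5%, and those of the UUO samples were 10.1% and 20.7%. UUO 1 lay below every Control, but on 24 CNT cells, and UUO 2 lay among the Controls. The distal convoluted tubule class DCT, which fine-tunes sodium chloride reabsorption, followed the same pattern at 16.2% ± 4.79 (n = 5) in Control and 12.5% ± 4.36 (n = 2) in UUO. CNT ranked 1 among the tubular classes in 4 of the 5 counted Controls and 3 in Control 6, and 5 of 7 and 2 of 10 in UUO 1 and 2. Below DCT came the type A intercalated cells A-IC, which secrete acid, at 15.5% ± 6.46, the ascending limb of the loop of Henle ALOH at 14.6% ± 3.55, B-IC at 13.7% ± 5.14 and Trans IC at 13.6% ± 4.67 (all n = 5).

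The collecting duct principal cells, CD PC, which carry out regulated water and sodium reabsorption, were an epithelial class with a wide spread. The class had a Control mean of 17.5% ± 10.7 (n = 5). Its medians were 6.67%, 9.20%, 23.6%, 10.6%, 24.4% and 32.2% in Controls 1 to 6 and 16.4% (18 cells) and 20.5% in the UUO samples. Controls 1, 2 and 4 were low and Controls 3, 5 and 6 high, with the UUO samples between. Controls 3 and 4, pooled on their class proportions, differed from each other in this class.

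The proximal tubule, the largest class with 52193 of the 77393 cells, stood low among the tubule classes in Control. PT cells reclaim most of the filtered glucose, amino acids and sodium. Their medians were 9.60%, 9.29%, 12.4%, 11.7%, 11.3% and 17.3% in Controls 1 to 6, and 15.9% and 16.0% in the UUO samples. The UUO values lay above 5 of the 6 Controls and below Control 6. The Control mean was 11.9% ± 3.22 (n = 5) and the UUO mean 15.9% ± 0.0864 (n = 2). The dividing proximal tubule class, Prolif PT, was at 15.7% ± 10.1 (n = 3) in Control, with 8.25%, 11.8% and 27.2% in Controls 2, 5 and 6, and at 12.6% and 12.4% in the UUO samples. The class the authors call Profibrotic Tubules was the lowest tubular class in 6 of the 7 counted samples, Control 5 being the exception, at 7.98% ± 5.04 (n = 5) in Control and 6.70% and 7.52% in the UUO samples.

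Endothelium and podocytes lay between tubule and most immune classes. The glomerular endothelial class GEC, cells that line the filtering capillaries, had 5.52% ± 2.27 (n = 5) in Control and 5.49% ± 0.270 (n = 2) in UUO, and Endo had 7.14% ± 3.37 (n = 5) in Control. Podo, the podocytes that wrap those capillaries, reached 20 cells in Controls 5 and 6 alone, with 6.11% ± 0.0785 (n = 2).

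Most T cell classes were among the lowest in Control mean. CD8 effector cells, cytotoxic T cells, had 3.49% ± 1.35 (n = 3) in Control and 2.71% ± 0.372 (n = 2) in UUO, and CD4 T, the helper T cells, had 3.53% ± 1.35 (n = 5) and 3.20% ± 0.502. The CD4 T medians were 2.57%, 3.13%, 1.87%, 2.19%, 4.63% and 5.24% in Controls 1 to 6 and 2.84% and 3.55% in UUO. Controls 5 and 6 were the highest 2 of these 8 values. DC, the dendritic cells, had 3.65% in the 1 Control sample with 20 cells. Th17, the helper T cells that make interleukin-17, had 3.67% ± 1.73 (n = 3) in Control and 2.61% and 3.20% in the UUO samples. In UUO the means of Prolif Ly (2.21%), Mono (2.36%), DC (2.38%) and Neutro (2.60%) lay below that of CD8 effector. Macro, the macrophages, had 4.36% ± 2.32 (n = 5) in Control and 2.72% and 4.20% in UUO. Baso, the basophils, granulocytes that release histamine and interleukin-4, reached 20 cells in no Control. Their UUO medians were 2.50% over 34 cells and 3.16% over 65 cells, within the range of the other immune classes there.

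**Figure D1:**
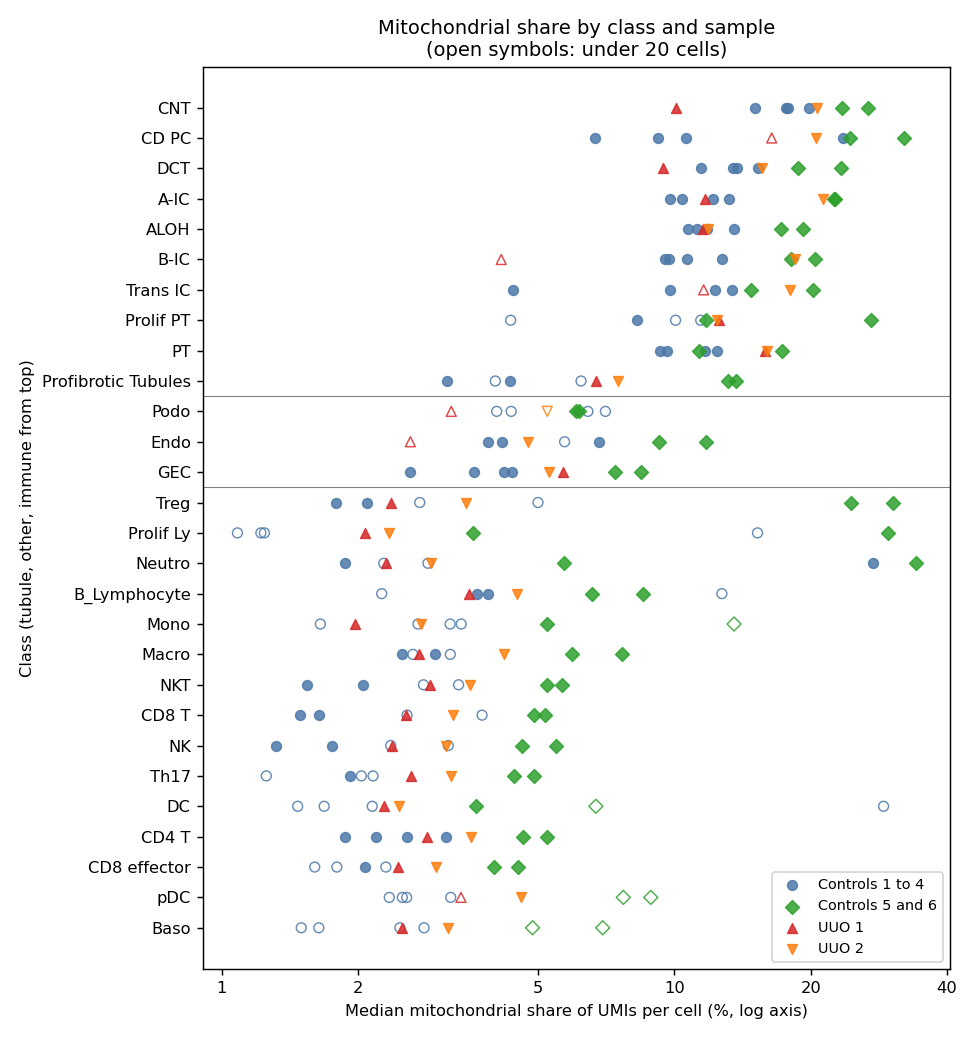
Median mitochondrial percent (of UMIs) of each cell class in each sample. Blue circles are Controls 1 to 4, green diamonds Controls 5 and 6, the red upward triangle UUO 1 and the orange downward triangle UUO 2, with open symbols for fewer than 20 cells. Most tubular classes lie right of most immune classes, while Neutro (up to 34.2%), Treg and Prolif Ly reach tubular values in some Controls. The green diamonds lie right of the blue circles in nearly every class.

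The order of neighbouring classes could not be resolved by a test. Of the 23 adjacent pairs in the Control order that shared at least 2 Control samples, 0 passed a two-sided exact sign-flip permutation test. None could have passed, since the smallest possible p was 0.0625 to 0.5 by pair. With 5 samples that test cannot go below 0.0625, the value reached for GEC over Macro, which were higher in 5 of 5 samples.

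Tubular cells as a whole exceeded immune cells in every sample. Over the 10 tubular classes together the medians were 10.1%, 10.2%, 12.6%, 14.1% and 18.4% in the 5 counted Controls and 15.6% and 15.9% in UUO. Over the 15 immune classes together they were 2.74%, 3.03%, 1.85%, 6.99% and 5.62% in Control and 2.63% and 3.33% in UUO. The 2 ranges did not overlap. On the scale of log2(median percent + 0.5) the gap within a sample was 1.83 ± 0.52 (SD, n = 7), positive in 7 of 7 samples, with an exact two-sided sign-flip permutation p of 0.0156, the smallest that 7 samples allow. Without Controls 5 and 6 the gap was 2.05 (exact p = 0.0625, again the smallest possible).

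The separation also held class by class in the obstructed kidneys. In UUO 1 all 14 immune classes with 20 cells, and in UUO 2 all 15, had a median below that of every tubular class, as did 9 of 9 in the pooled Controls 3 and 4 and 4 of 4 in Control 2. In Control 5 this was true of 9 of 12, in Control 6 of 11 of 12 and in Control 1 of 2 of 3. The gap averaged 1.67 ± 0.54 (n = 5) in Control and 2.23 ± 0.19 (n = 2) in UUO. The difference of 0.56 did not pass an exact permutation test (p = 0.286, the smallest possible being 0.0476). Without Controls 5 and 6 it was 0.31 (exact permutation p = 0.5). With equal weight for each class that had at least 20 cells in every sample, it was 0.05 (exact permutation p = 0.667). The immune side then rests on CD4 T and Macro.

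No class passed the test between UUO and Control. The test was limma on log2(sample median percent + 0.5) over the 19 classes with at least 20 cells in 2 samples of each group. At a Benjamini-Hochberg adjusted p under 0.05 it called 0 classes higher (0.0% of the 19 tested) and 0 classes lower (0.0%), and 1 had an unadjusted p under 0.05. An exact permutation test per class called 0, but it could not have called any. Its smallest possible p was 0.0476 to 0.333 by class, which cannot stay under 0.05 after adjustment over 19 classes. 15 differences were negative and 4 positive, with a median of -0.25. Adjusted p-values ran from 0.652 to 0.926. In PT the difference was 0.44 (SE 0.46, 95% interval -0.56 to 1.45, limma adjusted p = 0.926), and in CNT it was -0.45 (SE 0.49, interval -1.51 to 0.60, limma adjusted p = 0.926).

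The direction of several classes turned on which Controls were used. Over the 18 classes that could be placed, both UUO medians lay below both Controls 5 and 6 in 16, and above all of the smaller Controls in 10. In 0 of the 18 classes did both UUO medians lie below all of the smaller Controls. The exceptions to the first count were PT and Prolif PT. Without Controls 5 and 6, 11 classes could be tested, 7 differences were positive and 4 negative, and 0 classes passed. Against Controls 5 and 6 alone, 18 of 19 differences were negative, PT being positive at 0.18, and 1 class, Treg, was called lower (-3.05, limma adjusted p = 0.00297). Over those 4 samples an exact permutation test cannot go below 0.333. Library and group cannot be told apart here for the classes that follow this pattern, because the Controls of like size to the UUO libraries are only these 2.

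**Figure D2:**
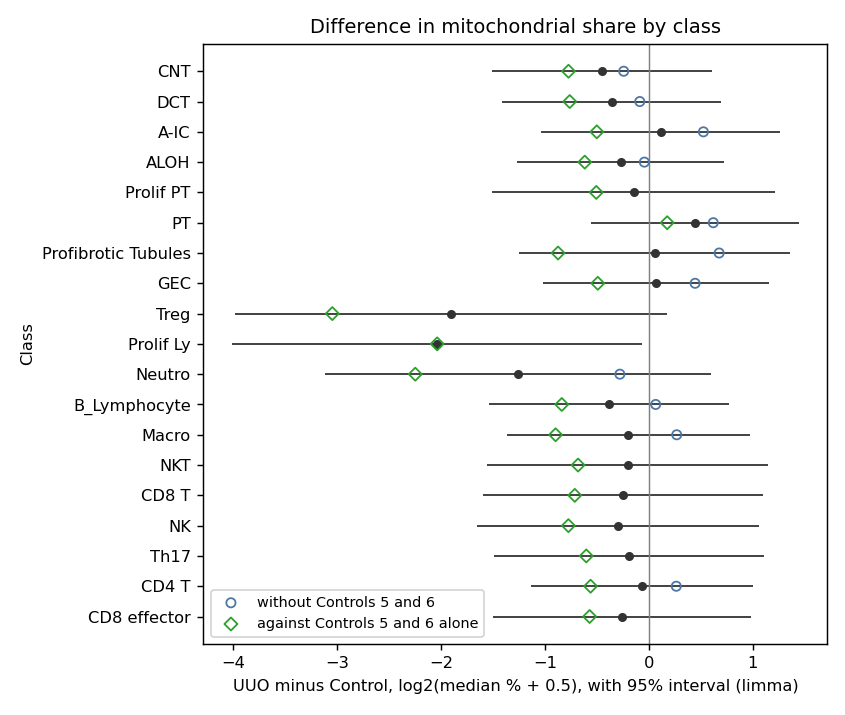
UUO minus Control difference in log2(sample median percent + 0.5) for 19 classes (black points), with limma 95% intervals over all samples. Open blue circles repeat the difference without Controls 5 and 6 and open green diamonds against Controls 5 and 6 alone. Every interval but that of Prolif Ly includes 0, the circles and diamonds fall on opposite sides of 0 for several classes, and PT is above 0 in all 3 comparisons.

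Treg, the regulatory T cells that restrain other lymphocytes, differed widely between samples. Their medians were 1.78% and 2.10% in Controls 3 and 4 (Controls 1 and 2 held 11 and 5 cells), 30.3% and 24.6% in Controls 5 and 6, and 2.36% and 3.46% in the UUO samples. The 2 large Controls thus stood far above every other sample, and the UUO samples lay slightly above Controls 3 and 4. The Control mean of 19.0% ± 14.9 (n = 3), the second highest of all classes, rests on Controls 5 and 6. The UUO minus Control difference was -1.90 (SE 0.94, limma adjusted p = 0.652). It was called lower without Controls 3 and 4 (limma adjusted p = 0.00730). For Treg this leaves the same 4 samples as the comparison with Controls 5 and 6 alone, so it is not a second result. Over them an exact permutation test cannot go below 0.333.

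Neutrophils and dividing lymphocytes showed the same kind of spread. Neutro medians were 2.86% (18 cells), 1.87%, 2.28% (13 cells), 27.4%, 34.2% and 5.70% in Controls 1 to 6, and 2.31% and 2.90% in UUO. Controls 4 and 5 stood far above the other samples, and the difference of -1.26 had an SE of 0.85 (limma adjusted p = 0.926). Prolif Ly, a class chosen for naming after its values were seen, had medians of 29.6% in Control 5 and 3.59% in Control 6, and 2.07% and 2.35% in UUO. Its difference of -2.04 was the 1 with an unadjusted p under 0.05 (limma adjusted p = 0.652).

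In these 3 immune classes the high medians came from many cells in the range near or above 25%. That range was not set apart everywhere: Treg cells of Control 6 also lay in most bins between 10% and 25%. In Control 5, 142 of 201 Neutro cells, 22 of 37 Treg cells and 69 of 114 Prolif Ly cells had at least 25% mitochondrial UMIs. In Control 4, 16 of 31 Neutro cells did, in Control 6, 13 of 147, and in the UUO samples 5 of 400 and 7 of 366. Treg cells of that range made up 15 of 33 in Control 6, 15 of 327 in UUO 1 and 66 of 399 in UUO 2. Of the 358 Control immune cells at or above 25%, 282 were in these 3 classes, which were picked for their high values and held 845 of the 2927 Control immune cells. Control 5 supplied 233 of the 282, and without it the count was 49 of 95. In Neutro the cells in the high range carried fewer other transcripts: those at or above 25% in Control 5 had a median of 1059 non-mitochondrial UMIs, against 3411 in Neutro cells under 10%, and in Control 4 these medians were 612 and 4521. In Treg these medians were 1401 and 1716 over all Control cells and 1756 and 2236 over all UUO cells. Unlike the Neutro values, they pool libraries. Most Control Treg cells at or above 25% came from Controls 5 and 6, and most under 10% from Controls 3 and 4. Differences between libraries therefore enter these pooled Treg medians, which cannot be set beside those of Neutro. Within libraries, the Spearman rho of the percent with other UMIs was -0.28 to -0.11 in Treg, negative in 6 of 6. In Neutro it was -0.66 to 0.09, negative in 5 of 6. The share holds the other UMIs in its denominator, so part of this relation is arithmetic. Other immune classes of the large Controls held cells of that range too, among them Mono with 8 of 18 and Macro with 6 of 45 in Control 5, and DC with 5 of 16 and Macro with 7 of 37 in Control 6. CD4 T had 3 of 126 cells in Control 5 and 2 of 141 in Control 6, and of the CD8 effector cells 0 of 716 reached 25% in any sample. Whether the cells in the high range belong to the class they are named for was not tested, since the files hold no gene-level values.

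**Figure D3:**
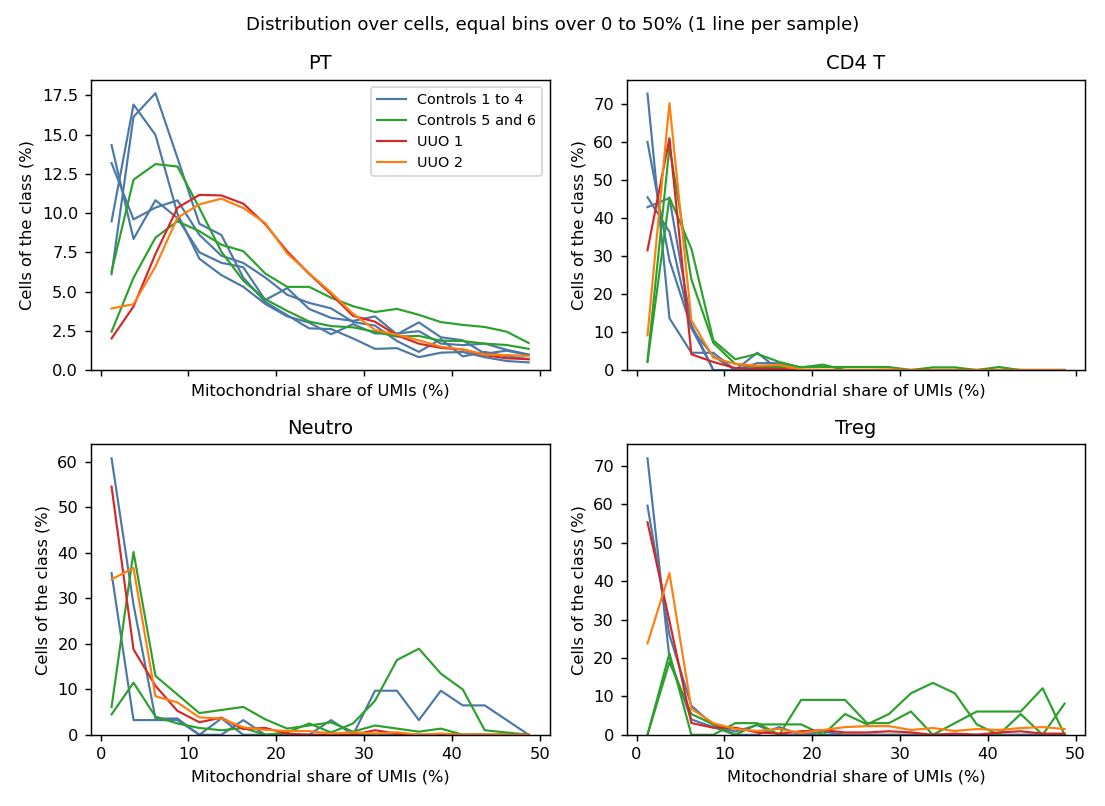
Share of a class's cells (y axis, percent) in bins of 2.5 percentage points of mitochondrial UMIs (x axis, percent) for selected classes, 1 line per sample with at least 20 cells. In PT the UUO lines peak between 10% and 15% while the Controls peak below 10%. In Neutro and Treg the UUO lines peak below 5%, while Controls 4 and 5 in Neutro and Controls 5 and 6 in Treg also hold many cells above 25%.

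The compartments showed the same dependence. On the log2 scale the UUO minus Control difference was 0.44 in PT together with Prolif PT (exact permutation p = 0.190), -0.35 in the other tubule classes (p = 0.476), -0.08 in endothelium (p = 0.905), -0.86 in myeloid cells (p = 0.476) and -0.20 in lymphoid cells (p = 0.762). After adjustment over the 5 compartments the exact permutation p-values were 0.794, 0.794, 0.905, 0.794 and 0.905. The smallest possible p before adjustment was 0.0476, so after it none could pass unless all 5 reached that value. Without Controls 5 and 6 the differences were 0.62, -0.02, 0.31, -0.02 and 0.20 in the same order, in a design that cannot go below an exact p of 0.1. The myeloid difference moved from -0.86 to -0.02 with these 2 libraries, and the myeloid median of Control 5 was 29.0% against 5.90% in Control 6.

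The level of the proximal tubule relative to the rest of the tubule was lower in Control than in UUO, but the classes that make up the rest differed between the groups. PT and Prolif PT cells together were below the other tubule classes in all 5 counted Controls, by 0.19, 0.46, 0.17, 0.98 and 0.30 log2 units in Controls 1, 2, 3 with 4, 5 and 6. In UUO 1 they were above by 0.70 and in UUO 2 by 0.05. The groups did not overlap, although UUO 2 lay near 0. The mean gap was -0.42 ± 0.34 (n = 5) in Control and 0.37 ± 0.46 (n = 2) in UUO, a difference of 0.79. The two-sided exact permutation p was 0.0476, the smallest the design allows. This comparison was chosen after the values were seen, so its p does not count as a planned test.

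PT ranked 7 of 9, 7 of 10, 5 of 9, 10 of 10 and 8 of 10 among the tubular classes in the counted Controls, and 1 of 7 and 6 of 10 in UUO. PT with Prolif PT had a mean of sample medians of 11.9% ± 3.26 (n = 5) in Control and 15.9% ± 0.0909 (n = 2) in UUO. The other tubule classes had 16.3% ± 5.46 and 12.5% ± 4.11. Neither side passed its own test, also before adjustment (exact permutation p = 0.190 and 0.476). The gap kept its sign but not its call in most alternatives. It was 0.65 without Controls 5 and 6 (exact p = 0.1, the smallest possible), 1.01 against those 2 alone (exact p = 0.333, the smallest possible), 0.63 with equal weight for each class (exact p = 0.0952) and 0.55 on the log2 odds of summed UMIs (exact p = 0.190). Leaving out UUO 1 gave 0.47 and leaving out UUO 2 gave 1.12. The other tubule of UUO 1 held 422 cells, against 838 to 4265 in the other samples. Profibrotic Tubules, a low class, made up 123 of these 422 cells and 90 of 929 in UUO 2, against 241 of 11567 in Control. With that class left out the gap was 0.53 in UUO 1 and -0.05 in UUO 2, against -0.99 to -0.18 in Control, and the difference of 0.68 no longer passed (exact permutation p = 0.0952).

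**Figure D4:**
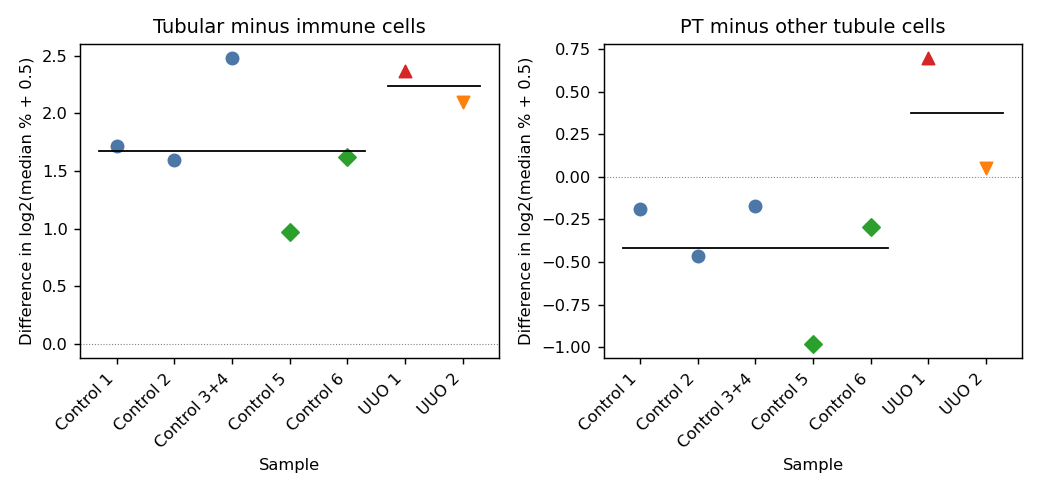
Within-sample gaps on the scale of log2(median percent + 0.5), 1 point per counted sample, with the group mean. The tubular minus immune gap is above 0 in all 7 samples. The PT minus other tubule gap is below 0 in the 5 Controls and above 0 in the 2 UUO samples, with UUO 2 at 0.05.

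The share of PT cells under 10% was lower in both UUO samples than in every counted Control. Those under 10% made up 51.3%, 53.4%, 43.6%, 44.5% and 26.2% of the class in the 5 counted Controls, and 23.8% and 24.4% in UUO. The groups did not overlap, but Control 6 lay within 3 percentage points of the UUO samples. The contrast did not hold at the lowest values. Under 5% lay 8.32% of PT cells in Control 6, against 6.06% in UUO 1 and 8.12% in UUO 2. The 5th percentile of Control 6, 3.61%, lay between those of UUO 2 (3.20%) and UUO 1 (4.45%). PT cells at or above 25% made up 19.6%, 12.3%, 19.9%, 20.6% and 32.6% in Control and 20.4% and 20.8% in UUO, where the groups overlapped. The fullest bin of 2.5 percentage points began at 2.5%, 5%, 0%, 0%, 5% and 7.5% in Controls 1 to 6 and at 10% and 12.5% in UUO 1 and 2. The interquartile range was 11.2 to 19.6 percentage points in Control and 12.8 and 13.1 in UUO. Because the class was chosen for this look after its median was seen, these shares are given without a test.

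A percent can move through its numerator or its denominator, so both were taken apart. Mitochondrial UMIs per cell were recovered from the percent and the UMI count and were whole numbers in 100% of cells (tolerance 0.001). PT cells had a median of 124, 165, 166, 168, 330 and 292 mitochondrial UMIs in Controls 1 to 6, and 404 and 428 in UUO. Their other UMIs were 1019, 1439, 1122, 1121, 2442 and 1375 in Control and 2171 and 2251 in UUO. Both UUO samples exceeded all Controls in mitochondrial UMIs, and 5 of 6 Controls in the other UMIs. The log2 differences were 1.04 (SE 0.76, limma adjusted p = 0.825) and 0.65 (SE 0.33, limma adjusted p = 0.210).

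Over all 19 classes, limma on mitochondrial UMIs per cell called 0 classes higher (0.0%) and 0 lower (0.0%), with 0 at an unadjusted p under 0.05 and a lowest adjusted p of 0.584. 12 differences were positive and 7 negative. Without Controls 5 and 6, 7 of the 11 classes that could be tested were called higher: A-IC, ALOH, CNT, DCT, Macro, PT and Profibrotic Tubules. PT then stood at 1.46 (limma adjusted p = 0.00189) and Macro at 1.85 (limma adjusted p = 0.000180). Over the 5 samples left, an exact permutation test cannot go below 0.1. The limma values are smaller because variance is shared over classes, which come from the same libraries and are not independent. All 11 differences were positive in that comparison, and the 2 UUO libraries had medians of 2496 and 2583.5 UMIs a cell against 1292 to 1599 in Controls 1 to 4. The part of library depth in these differences was not tested.

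The other, non-mitochondrial UMIs were called higher in 2 of 19 classes (10.5%), both myeloid, and lower in 0 (0.0%). Macro cells had medians of 1225, 1405, 1509 (7 cells), 1532 (14 cells), 1699 and 1006 other UMIs in Controls 1 to 6. In UUO they had 2879 and 2654, a difference of 1.03 (SE 0.25, limma adjusted p = 0.0217). Neutro cells had 1919 (18 cells), 2508, 1548 (13 cells), 856, 1196 and 2129 in Control and 4836 and 5355 in UUO, a difference of 1.67 (SE 0.39, limma adjusted p = 0.0217). In both classes every UUO median lay above every Control median. Neutro mitochondrial UMIs were 64, 51.5, 67, 223, 501 and 108 in Control and 114 and 151 in UUO, a difference of -0.02, with the UUO values inside the Control range. Without immune cells at or above 10%, the difference in other UMIs was 1.74 in Macro (limma adjusted p = 0.00141) and 0.78 in Neutro, which was no longer called (limma adjusted p = 0.180). Neither class was called without UUO 1 or without UUO 2. Over all 19 classes 18 differences in other UMIs were positive, with a median of 0.47. After the mean over classes was subtracted from each sample, 0 were called, 8 differences were positive and 11 negative.

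**Figure D5:**
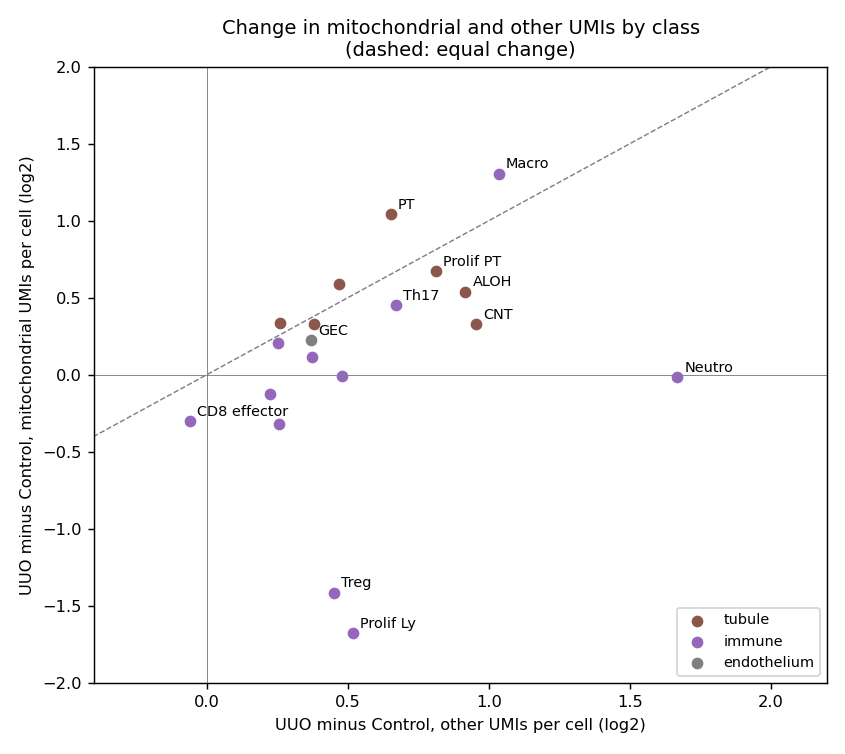
UUO minus Control log2 difference per class in other UMIs per cell (x axis) and in mitochondrial UMIs per cell (y axis), 1 point per class, coloured by tubule, immune or endothelium. On the dashed line both differences are equal. PT lies above it, with 1.04 in mitochondrial and 0.65 in other UMIs, and Neutro, Treg and Prolif Ly lie far below it.

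Among cells of 1 class in 1 library, the mitochondrial share was mostly lower where the other transcripts were more numerous. The Spearman rho of the percent with the other UMIs was negative in 132 of 161 combinations of class and library, with a median of -0.19. The share contains the other UMIs in its denominator, so part of this relation is arithmetic. Mitochondrial and other UMIs themselves correlated positively in 157 of the 161, with a median rho of 0.48. CD PC had the steepest relation, from -0.83 to -0.33 over 7 libraries, and PT ran from -0.58 to -0.14 over 8. The median was positive in Baso (0.43 over 2 libraries), Trans IC (0.12 over 7) and B_Lymphocyte (0.03 over 6). These correlations are over cells that share a library and are given as a description.

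The summed mitochondrial share of all UMIs was 11.5%, 10.0%, 11.7%, 18.6% and 19.7% in the counted Controls and 14.2% and 13.6% in UUO, which lay between the small and the large Controls. The difference in log2 odds was 0.0040 (exact permutation p = 1). It was 0.38 without Controls 5 and 6 (exact permutation p = 0.1, the smallest possible) and -0.55 against those 2 alone (exact permutation p = 0.333, the smallest possible). Given equal weight for each class it was -0.08. PT supplied 51.7% to 72.5% of a Control library's mitochondrial UMIs, and 93.0% and 77.7% in UUO 1 and 2, where PT also made up 79.3% and 62.5% of the cells against 43.8% to 73.1% in Control.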

How the data were processed

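Cells, classes and samples were used as the authors deposited them. The build mm10, Seurat 4.0.1 and Cell Ranger 6.0.1 are named per the submitters' processing notes. The sources used here give neither their roles nor the cell filter, the treatment of doublets or the mitochondrial gene list. UMIs per cell are counts, not normalized, per the file headers. The authors give mitochondrial UMIs as a percent of all UMIs in the cell, per the file headers. No per-sample column was set aside.

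From these, mitochondrial UMIs were recovered as percent times UMIs. Each class entered a sample with at least 20 cells as its median, because cells are not replicates. Differences were tested with limma 3.58.1 in R 4.3.3 on log2(median percent + 0.5), or log2(median UMIs + 1), over 19 classes with Benjamini-Hochberg adjustment at 0.05. Single values were tested by two-sided exact permutation over samples with numpy 2.4.6 under Python 3.11.15. The limma and exact tests were checked on simulated data.

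Named in the text are classes past the threshold, the 3 highest and 3 lowest by Control mean, every proximal tubule class, and neutrophils, basophils, macrophages and Th17 cells. Further classes are given for their level, and Prolif Ly was picked once its values were known. The members and lists were chosen with earlier results of these data known. Alternatives covered the summary of a class, the minimum of cells or UMIs, the offset, centring, libraries left out and the replicate block. Leaving out Controls 3 and 4 or 5 and 6, leaving out immune cells at or above 10% or Profibrotic Tubules, and the PT minus other tubule gap were added after the data were seen. Gene-level values are not analysed here, so class names were not checked against markers.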

Additional observations from a re-analysis of the deposited data

Results flagged for a closer look

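The median mitochondrial percent of Neutro in Control 5, 34.2%, stood apart from the other counted Control samples, in which Controls 3 and 4 are pooled at 5.43%. Control 4 by itself had 27.4% over 31 cells, so the value stands apart only with that pooling. Its gap to the nearest of them was 0.881 of the whole range over 4 samples, above the critical 0.829. It was the 1 such case among 15 groups of samples examined, and chance gives about 1 in 20. The PT minus other tubule gap, a comparison chosen after its values were seen, differed between UUO and Control by 0.79 on the log2 scale (exact permutation p = 0.0476, the smallest possible). It no longer passed with summed UMIs, the mean over cells, equal class weights or Profibrotic Tubules left out (exact permutation p of 0.190, 0.143, 0.0952 and 0.0952).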

How the results depend on the processing

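The limits are 2 UUO samples, Controls that differ in level by library, and medians resting on as few as 20 cells. The tubular minus immune gap kept its direction throughout. It fell short of the threshold at 1.76 in libraries over 10000 cells and at 2.05 without Controls 5 and 6, where the design cannot pass. The UUO minus Control difference of this gap fell from 0.56 to 0.05 with equal class weights. The PT minus other tubule gap lost its call at 0.44 with the mean over cells, 0.55 with summed UMIs, 0.63 with equal class weights and 0.68 without Profibrotic Tubules. At 1.01 in large libraries, 0.86 without Controls 3 and 4 and 0.65 without Controls 5 and 6 the design cannot pass. It ran from 0.47 to 1.12 with 1 library left out. The number of classes called for the percent became 2 higher (PT and Profibrotic Tubules) with the replicate block, and 1 lower in large libraries and without Controls 3 and 4. Both lower calls were Treg and used the same samples. Whether equal sample numbers pair a Control with a UUO sample is not known. The correlation of their deviations over 7 classes was 0.87 for number 1 and -0.42 for number 2. With 2 UUO samples the deviations of these are opposite by construction, so this correlation cannot decide it. For mitochondrial UMIs the number of classes called became 7 higher without Controls 5 and 6, and 1 lower in large libraries and without Controls 3 and 4. The lower calls were again Treg on the same samples. For other UMIs, against 2, the number called was 5 with the mean over cells, 4 with a minimum of 10 cells and 1 with no minimum. It was 0 after centring, 1 in large libraries, 9 with the replicate block and 1 without immune cells at or above 10%. Without Controls 5 and 6 it was 6. With 1 Control left out it was 1 to 7: 7 without Control 5, and 1 without Control 1, 2 or 6. The exact test per class called 0, where the design cannot pass.

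Differences that changed sign were small or rested on few samples. The share of all UMIs went to -0.080 with equal class weights, -0.55 in large libraries and -0.067 without Controls 3 and 4, and ran from -0.13 to 0.16 with 1 library left out. Endothelium went to 0.043 with summed UMIs, 0.082 with the mean, 0.034 with 8 separate samples, 0.28 in cells of at least 1000 UMIs, 0.31 without Controls 5 and 6 and 0.071 with equal class weights, and ran from -0.15 to 0.083 with 1 library left out. Lymphoid cells went to 0.20 without Controls 5 and 6. For the percent by class, CNT ran from -0.95 to 0.045 with 1 library left out, and the sign turned without UUO 1. Prolif PT went to 0.058 with summed UMIs, 0.068 with the mean, 0.24 with a minimum of 10 cells or none, 0.18 after centring and 0.56 with the block, and from -0.51 to 0.33 with 1 left out. Profibrotic Tubules went to -0.87 in percentage points, -0.0080 with 8 separate samples or without Controls 3 and 4, and -0.87 in large libraries, and from -0.19 to 0.30 with 1 left out. Neutro went to 0.52 with the block. Macro went to 0.30 with the mean, 0.27 with the block and 0.27 without Controls 5 and 6, and from -0.47 to 0.076 with 1 left out. Th17 went to 0.041 with no minimum, 0.046 in cells of at least 1000 UMIs, 0.13 after centring and 0.14 without immune cells at or above 10%, and from -0.60 to 0.049 with 1 left out. CD4 T went to 0.042 with 8 separate samples, 0.0078 after centring, 0.14 with the block and 0.26 without Controls 5 and 6, and from -0.20 to 0.079 with 1 left out. CD8 effector went to 0.0067 with a minimum of 10 cells or none and 0.063 after centring. Mitochondrial UMIs of Neutro went to 0.24 with the mean, 0.19 with a minimum of 10 cells or none, 1.53 with the block, 0.74 without immune cells at or above 10% and 0.79 without Controls 5 and 6, and from -0.46 to 0.62 with 1 left out. A group left with 1 sample was assumed to vary like the other samples. The cause of these changes was not tested.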

Other observations

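The classes differed in how far their cells reached toward the upper limit of the table. Of the 4328 DCT cells in Control, 0 had 45% or more, which allows a share of up to 0.0693%, and the highest had 39.0%. Of the 1864 CNT cells in Control 0 did, which allows up to 0.161%, and the highest had 42.4%. These limits cover counting error only. In PT, 1220 of 52193 cells (2.34%) had at least 45%, and in CD PC, 72 of 1295 (5.56%). In Control alone PT had 861 of 29527 such cells and CD PC 66 of 1211. In UUO the highest DCT cell had 47.6%, 1 of 379 cells reaching 45%, and 3 of 126 CNT cells did, with the highest at 49.6%. In Control, DCT and CNT thus had higher medians than PT in every sample and a lower highest value. Profibrotic Tubules reached 34.7% at most over 454 cells, and CD8 effector cells 23.2% over 716 cells. These values are given as they stand, with no test.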
